A study of Mus musculus with 12 samples.

Results

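The interferon-stimulated genes described here are a list of 41 genes, chosen by symbol, whose transcripts rise in many cell types after interferon. Of these, 38 were among the 12028 protein-coding genes with values, and Rsad2, Cmpk2 and Mx2 were not analysed here. RNA sequencing measured their messenger RNA in M2-10B4, an established line of mouse bone marrow stromal cells with the background C57BL/6J X C3H/HeJ, in 4 groups of 3 biological replicates harvested on day 9. By its title the study is about androgen and the conversion of such cells to adipocytes. ADM+DHT cells were kept in adipogenic medium with 10 nM dihydrotestosterone (DHT), a potent androgen. ADM cells had that medium alone, which held 2 µg/mL insulin, 1 µM of the glucocorticoid dexamethasone, 2 µM rosiglitazone, an agonist of the fat cell factor PPARγ, and 10% charcoal-stripped serum. DHT cells received 10 nM DHT in regular medium, and control cells were untreated in regular medium. The labels do not say what regular medium contained, so a comparison across media covers every difference between them. All groups are cultures of 1 cell line.

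Levels are FPKM, fragment counts scaled to transcript length and to the fragments of the library, and summed to between 240651 and 262947 per library. No read counts are in the tables, so depth is unknown. Of 9 bone marrow stromal markers 7 were in the tables, Cxcl12 and Col1a1 among them, with summed levels of 2110 to 2140 FPKM in ADM+DHT, 1430 to 1500 in ADM, 2480 to 2580 in DHT and 2310 to 2370 in control, while Lepr and Thy1 were not analysed here. The single markers did not all follow the sum. Of 6 tested, 3 were called higher and 3 lower in ADM against control, against 28.3% and 33.3% of all genes. In DHT against control 5 of 6 were called higher, against 12.7% of all genes. The 6 adipocyte markers summed to 596 to 645 FPKM in ADM+DHT, 1700 to 1790 in ADM, 5.07 to 5.35 in DHT and 4.81 to 5.12 in control. The 13 mitochondrially encoded genes took 13.3 to 13.9% of all FPKM in ADM+DHT, 16.3 to 17.2% in ADM, 9.63 to 10.5% in DHT and 9.34 to 9.96% in control.

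Type I interferons bind a receptor whose kinases activate STAT2. It acts with IRF9 in a complex that binds the interferon-stimulated response element (ISRE) in target promoters, while interferon gamma acts at gamma-activated sites. The products sense, cut or sequester viral RNA, attach the ubiquitin-like protein ISG15 to other proteins, or restrain vesicles and membranes of pathogens. Many cells keep a low level of these transcripts without infection.

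Control cells had the highest mean level of most of these genes, and DHT, adipogenic medium and their combination each came with lower levels. Of the 38 genes, 37 reached a mean of 1 FPKM in at least one group and could be tested. Control had the highest mean of the 4 groups for 34 of the 37, against 33.1% of all 11152 genes tested. All 3 control libraries lay above the other 9 libraries for 30 of the 37, against 15.3% of all genes. The median level of the 37 genes was 44.1% of control in ADM+DHT, 47.0% in ADM and 57.3% in DHT, where the medians over all genes were 99.6%, 98.0% and 99.8%. The exceptions to the control maximum were Ifi27, highest in ADM, Ifi35, highest in ADM+DHT, and Samd9l, highest in DHT. In bulk RNA, fewer cells that transcribe a gene and less RNA per cell cannot be told apart.

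**Figure D1:**
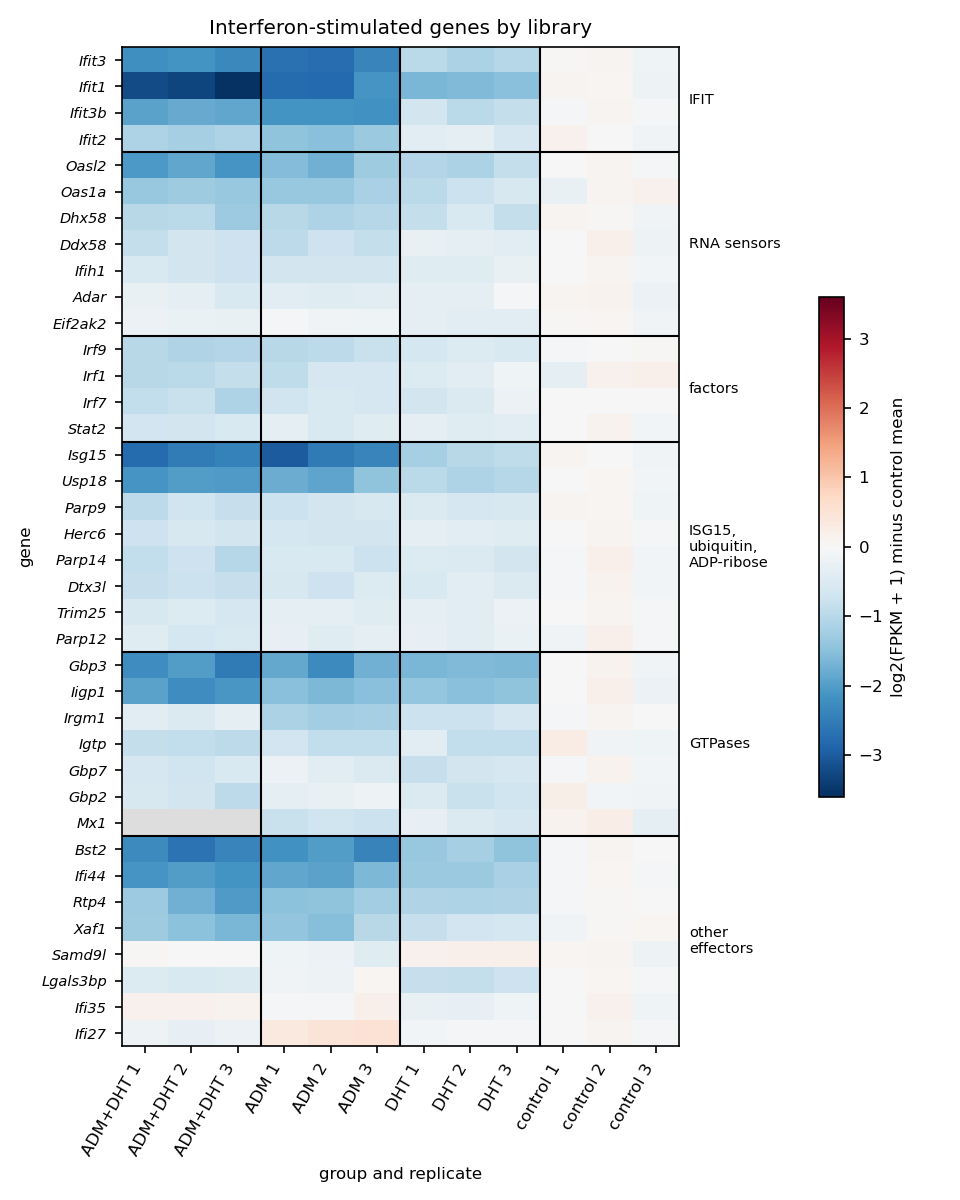
Level of 38 interferon-stimulated genes in each of the 12 libraries (columns, by group and replicate), as log2(FPKM + 1) minus the control mean of the gene (colour scale), with genes in rows by role and grey where no value was given. Blue fills most rows in ADM+DHT, ADM and DHT, and the rows of Samd9l, Lgals3bp, Ifi35 and Ifi27 are paler or turn red.

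ADM was compared with control to see how 9 days in adipogenic medium without androgen changed these genes. Most fell: 31 of the 37 were lower in ADM at an adjusted p below 0.05 (limma), Ifi27 was higher, and 5 did not pass. Over all 11074 genes tested in this comparison 33.3% were called lower and 28.3% higher, 61.6% in all. The median log2 difference of the 37 was -0.82, against -0.03 over all genes, and the libraries of the groups did not overlap for 33 of the 37, against 67.6% of all genes. In ADM 20 of the 37 stood at or below 50% of the control mean, against 8.91% of all genes. Differences are given on the log2(FPKM + 1) scale ± SE, which understates the fold of genes near 0.

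Isg15 (ENSMUSG00000035692.6, chromosome 4, 156199424 to 156200818 in GRCm38), which encodes the ubiquitin-like modifier itself, had the largest difference. It stood at 1.96, 3.04 and 3.54 FPKM in ADM libraries, against 24.2, 22.9 and 20.8 FPKM in control libraries, a log2 difference of -2.64 ± 0.15 (adjusted p = 4.83e-06). Every ADM library was far below every control library, and the ratio of the means was 7.95-fold lower in ADM. The 4 IFIT genes, which lie between 34550694 and 34650009 on chromosome 19 and whose proteins bind foreign RNA and block its translation, all fell, by 1.43 to 2.61 on the log2 scale. Ifit3 measured 5.5, 5.3 and 7.06 FPKM in ADM libraries and 42.2, 44.3 and 37.2 in control libraries (-2.61 ± 0.11, adjusted p = 8.99e-07). Ifit1 measured 2.74, 2.73 and 4.92 FPKM in ADM and 26.5, 26.1 and 21.9 in control (-2.57 ± 0.18, adjusted p = 1.44e-05). Ifit3b, a close relative of Ifit3, measured 2.54, 2.48 and 2.45 FPKM in ADM and 14.1, 15.7 and 14.0 in control (-2.16 ± 0.066, adjusted p = 2.31e-07). For these 3 genes no ADM library reached the level of any control library. Bst2 (ENSMUSG00000046718.8, chromosome 8, 71534255 to 71537456) encodes tetherin, a membrane protein that holds budding virus particles at the cell surface. Its level was 9.58, 10.8 and 7.96 FPKM in ADM libraries, against 43.8, 50 and 45.9 FPKM in control libraries (-2.20 ± 0.10, adjusted p = 1.61e-06).

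The promoters of the listed genes were compared for letters of the response elements. For 30 of the 38 genes RefSeq (GRCm38.p6) gave a promoter window, of which the 250 bases before the annotated start were searched. The ISRE core searched was GAAA, 2 bases of any kind and GAAA again, on both strands (TTTC, 2 bases and TTTC on the other), with overlapping matches counted. It occurred for 12 of the 30 genes (40%), against 3.18% of 9302 genes of the tables with a window and 3.46% of all 27025 genes of the RefSeq table. The gamma-activated site TTCNNNGAA, which reads alike on both strands, occurred for 7 of the 30 (23.3%), against 7.24% of genes of the tables, and 4 genes held both. The sequences below belong to the 6 genes with the largest ADM difference among those described by library that hold a core. They are shown so that number and spacing of the cores can be compared, 5′ to 3′ in the direction of the gene, with the cores in capitals:

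Isg15, chr4:156200819-156201068, minus strand: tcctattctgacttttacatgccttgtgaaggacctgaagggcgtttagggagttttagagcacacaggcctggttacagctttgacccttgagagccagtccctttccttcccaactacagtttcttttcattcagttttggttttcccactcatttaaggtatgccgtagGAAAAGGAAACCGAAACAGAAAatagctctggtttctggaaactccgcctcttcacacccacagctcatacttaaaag
Ifit3, chr19:34583279-34583528, plus strand: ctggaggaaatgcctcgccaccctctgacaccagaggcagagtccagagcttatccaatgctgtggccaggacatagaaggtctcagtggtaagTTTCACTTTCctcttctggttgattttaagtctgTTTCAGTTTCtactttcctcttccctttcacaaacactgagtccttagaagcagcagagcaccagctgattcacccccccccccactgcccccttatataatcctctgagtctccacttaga
Ifit1, chr19:34640639-34640888, plus strand: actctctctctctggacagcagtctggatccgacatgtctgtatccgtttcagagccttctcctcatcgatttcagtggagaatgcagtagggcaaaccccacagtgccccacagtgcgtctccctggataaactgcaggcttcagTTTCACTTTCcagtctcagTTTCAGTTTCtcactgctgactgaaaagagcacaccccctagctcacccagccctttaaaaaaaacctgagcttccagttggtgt
Bst2, chr8:71537473-71537722, minus strand: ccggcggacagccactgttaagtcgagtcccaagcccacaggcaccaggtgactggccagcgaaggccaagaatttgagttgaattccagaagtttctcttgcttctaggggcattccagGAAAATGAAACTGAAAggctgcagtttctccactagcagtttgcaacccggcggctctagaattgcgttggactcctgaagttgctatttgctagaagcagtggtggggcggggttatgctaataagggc
Ifit3b, chr19:34607707-34607956, plus strand: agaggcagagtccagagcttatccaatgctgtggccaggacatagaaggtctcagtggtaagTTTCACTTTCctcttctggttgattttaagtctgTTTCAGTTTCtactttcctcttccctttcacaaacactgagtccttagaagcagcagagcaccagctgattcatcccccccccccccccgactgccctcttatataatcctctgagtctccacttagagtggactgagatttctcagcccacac
Gbp3, chr3:142559794-142560043, plus strand: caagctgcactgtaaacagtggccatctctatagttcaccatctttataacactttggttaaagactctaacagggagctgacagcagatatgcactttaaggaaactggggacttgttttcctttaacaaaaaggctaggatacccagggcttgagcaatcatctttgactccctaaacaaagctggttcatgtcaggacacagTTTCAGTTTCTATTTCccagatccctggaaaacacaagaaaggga

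The Isg15 window held 3 overlapping matches, starting 78, 72 and 66 bases before the annotated start. Bst2 and Gbp3 each held 2 overlapping matches, at 130 and 124 bases and at 45 and 39 bases before it. The IFIT windows held 2 separate matches each, at 156 and 122 bases for Ifit3, 104 and 85 for Ifit1 and 188 and 154 for Ifit3b. The windows of Ifit3 and Ifit3b share an unbroken run of 169 bases that includes both cores. The other genes with a core were Gbp2, Gbp7, Igtp, Irgm1, Oas1a and Stat2. The median log2 difference between ADM and control was -1.63 for the 12 genes with a core and -0.64 for the 18 without, and that between DHT and control was -0.80 and -0.38. These medians are a description of a few genes, and Stat2, Gbp7 and Gbp2, all with a core, differed by -0.46, -0.39 and -0.27. A match in the letters is not evidence of binding, and a window without one says nothing about the factors.

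**Figure D2:**
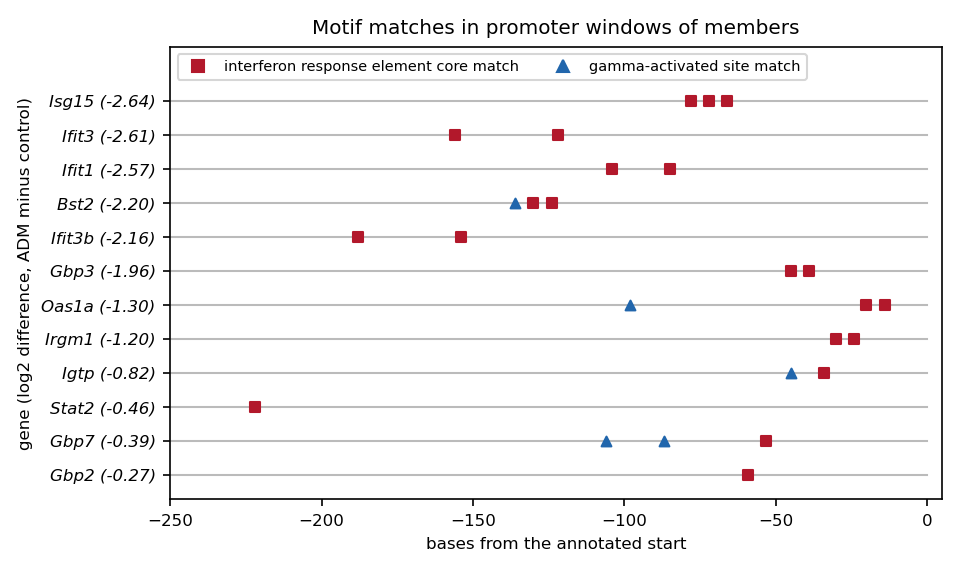
Positions of ISRE core matches (red squares) and gamma-activated site matches (blue triangles) in the promoter windows of the 12 genes with a core, in bases before the annotated start, ordered by their log2 difference between ADM and control (in parentheses). Matches of Isg15, Bst2, Gbp3, Oas1a and Irgm1 lie close together, and those of Ifit3 and Ifit3b share their spacing.

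Among the GTPases, proteins that attack the vacuoles in which pathogens hide, 5 of 6 tested genes fell in ADM. Gbp3, a guanylate-binding protein, stood at 1.51, 0.824 and 1.71 FPKM in ADM libraries, against 8.09, 8.73 and 7.23 FPKM in control libraries (-1.96 ± 0.15, adjusted p = 2.28e-05). Iigp1, an immunity-related GTPase, stood at 2.31, 2.06 and 2.35 FPKM in ADM and 8.61, 9.7 and 7.25 in control (-1.55 ± 0.10, adjusted p = 1.07e-05). Neither gene had an ADM library near the control range. Irgm1 (ENSMUSG00000046879.7, chromosome 11, 48861968 to 48871683), which regulates the other immunity-related GTPases, stood at 5.84, 5.28 and 5.55 FPKM in ADM and 13.2, 15.1 and 13.9 in control (-1.20 ± 0.069, adjusted p = 4.53e-06). Igtp (-0.82) and Gbp7 (-0.39) fell too, while Gbp2 at -0.27 ± 0.11 did not pass (adjusted p = 0.0627) although its libraries did not overlap. Mx1, a dynamin-like GTPase active against RNA viruses, lay below the level for testing: it is listed at 0, 0.063 and 0.0345 FPKM in ADM, 0.443, 0.222 and 0.146 in DHT and 0.903, 1.06 and 0.388 in control, with no value given for ADM+DHT.

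Every gene of the ISG15, ubiquitin and ADP-ribose group fell in ADM, 8 of 8. Usp18, whose protease removes ISG15 and dampens the type I receptor, differed by -1.72 ± 0.13. Herc6, the mouse ligase that attaches ISG15, differed by -0.66 ± 0.078. Dtx3l, Parp9, Parp12, Parp14 and Trim25, ligases of ubiquitin and enzymes or partners of ADP-ribosylation, differed by -0.36 to -0.67. Of the 7 RNA sensors and RNA-acting enzymes 6 fell. The helicase sensors Dhx58, Ddx58, which encodes RIG-I, and Ifih1, which encodes its relative MDA5, differed by -1.05, -0.85 and -0.65. The synthetase-like gene Oasl2 differed by -1.53 ± 0.12, and the RNA-editing enzyme gene Adar by -0.42 ± 0.10. Oas1a, an oligoadenylate synthetase that activates RNA decay, is listed at 0, 0 and 0.16 FPKM in ADM libraries, against 1.17, 1.8 and 1.88 FPKM in control libraries. Eif2ak2, which encodes the RNA-activated kinase PKR, was the exception at 27.4, 26.4 and 25.5 FPKM in ADM and 29.9, 30.4 and 26.1 in control, groups that overlapped (-0.11 ± 0.066, adjusted p = 0.171).

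The 4 transcription factors of the list all fell in ADM. Irf9 (ENSMUSG00000002325.15, chromosome 14, 55603571 to 55610030), the DNA-binding part of the interferon complex, measured 3.32, 3.49 and 4.02 FPKM in ADM libraries and 7.38, 7.8 and 7.87 in control libraries (-0.92 ± 0.076, adjusted p = 3.27e-05). Stat2, its partner, measured 6.92, 5.92 and 6.52 FPKM in ADM and 9.12, 10.1 and 8.43 in control (-0.46 ± 0.084, adjusted p = 0.00234). Irf7, which drives further interferon production, measured 0.975, 1.25 and 1.15 FPKM in ADM and 2.27, 2.25 and 2.29 in control (-0.62 ± 0.078, adjusted p = 0.000282). No ADM library reached the control range for these 3 genes. Irf1, an activator downstream of interferon gamma, measured 4.4, 5.74 and 5.7 FPKM in ADM and 7.2, 10.3 and 10.6 in control (-0.71 ± 0.15, adjusted p = 0.00477), and its groups also did not overlap.

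Of the 8 other effectors 4 fell in ADM and 1 rose. Besides Bst2, Ifi44 (-1.81 ± 0.099), Rtp4 (-1.40 ± 0.079), a chaperone of membrane receptors, and Xaf1 (-1.32 ± 0.14), which promotes cell death, were lower. Ifi27 (ENSMUSG00000064215.13, chromosome 12, 103434211 to 103440239) was the gene that rose, with 86.9, 93.1 and 97.7 FPKM in ADM libraries, against 66.4, 72.7 and 63.8 FPKM in control libraries (0.45 ± 0.063, adjusted p = 0.000569). Ifi35 measured 17.8, 17.4 and 20.8 FPKM in ADM and 18.3, 20.4 and 16.1 in control, which overlapped (0.03 ± 0.10, adjusted p = 0.796). Lgals3bp, which encodes a secreted galectin-binding glycoprotein, measured 80.7, 78.5 and 93.7 FPKM in ADM and 87.6, 92.5 and 86.6 in control (-0.08 ± 0.07, adjusted p = 0.351). Samd9l, an antiviral restriction factor, differed by -0.26 ± 0.10 and did not pass (adjusted p = 0.0599). The genes of the list with the highest levels in control, Lgals3bp and Ifi27, were not among those that fell. All 32 calls in ADM against control held without each of the 6 libraries and under every other setting in which the gene was tested.

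**Figure D3:**
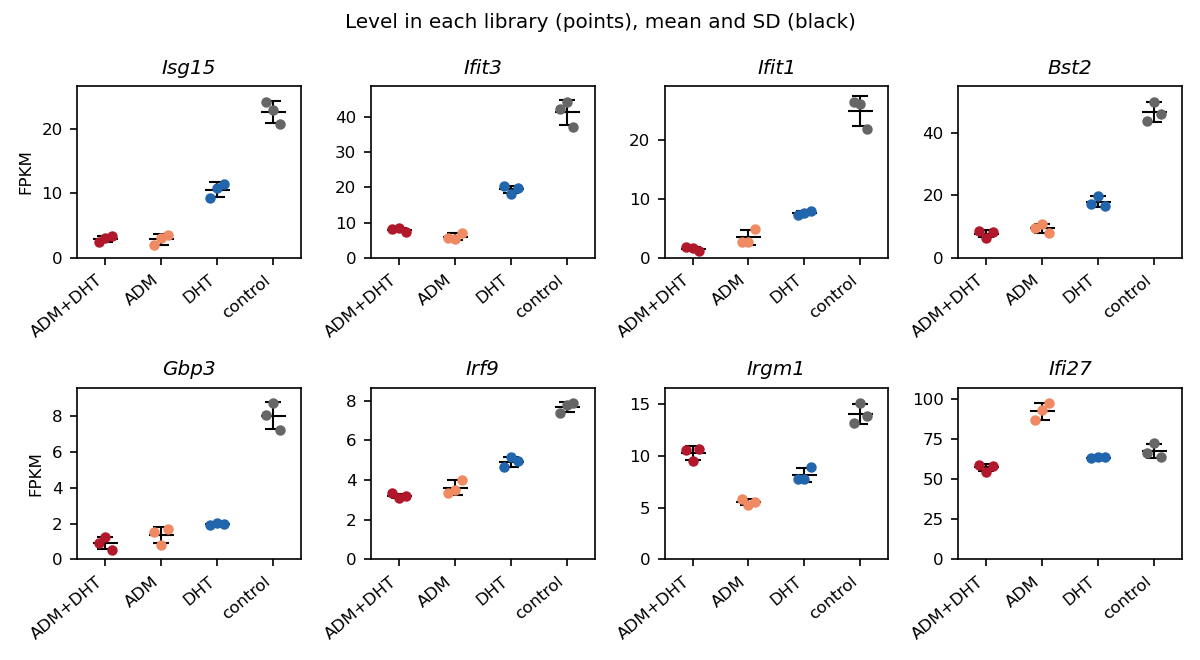
Levels in FPKM (vertical axes, from 0) of 8 genes in the 3 libraries of each group (points), with mean and SD in black. For Isg15, Ifit3, Ifit1, Bst2, Gbp3 and Irf9 control libraries lie above all others, the ADM+DHT libraries of Irgm1 lie between ADM and control, and Ifi27 is highest in ADM.

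DHT was compared with control to see the androgen's effect in regular medium. The control libraries are those of the comparison above, so the results of both rest in part on the same values. In DHT 32 of the 37 genes fell and 0 rose by limma's adjusted p, and 1 was higher at an unadjusted p below 0.05, against 14.1% called lower and 12.7% called higher, 26.9% in all, over the 10820 genes tested. That gene was Samd9l, the one with a positive difference, 0.18 ± 0.074 (adjusted p = 0.128). The median log2 difference was -0.68, against -0.01 over all genes, and the groups did not overlap for 33, against 43.4% of all genes. In DHT 12 of the 37 stood at or below 50% of the control mean, against 1.95% of all genes.

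Gbp3 differed most with DHT, at 1.89, 2.01 and 1.95 FPKM in DHT libraries, against the 8.09, 8.73 and 7.23 FPKM in control libraries (-1.61 ± 0.079, adjusted p = 1.59e-05). Ifit1 followed at 7.22, 7.62 and 8.0 FPKM in DHT and the control values above (-1.58 ± 0.08, adjusted p = 1.89e-05). Iigp1 was at 2.6, 2.36 and 2.47 FPKM in DHT (-1.45 ± 0.10, adjusted p = 8.84e-05), and Bst2 at 17.3, 19.9 and 16.5 (-1.33 ± 0.079, adjusted p = 3.89e-05). None of these 4 genes had a DHT library in the control range. All 6 tested GTPases, all 4 IFIT genes and all 8 genes of the ISG15 group fell, as did 6 of 7 RNA sensors and enzymes, with Adar not passing at -0.25 ± 0.12. Isg15 measured 9.26, 10.8 and 11.5 FPKM in DHT libraries, against 24.2, 22.9 and 20.8 FPKM in control libraries (-1.04 ± 0.088, adjusted p = 0.000205). Ifit3 measured 20.3, 18.2 and 19.7 FPKM in DHT (-1.05 ± 0.073) and Ifit3b 8.77, 7.0 and 7.66 (-0.83 ± 0.086). These genes lay between the ADM and the control levels in every DHT library.

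Of the transcription factors Irf9 fell to 4.64, 5.14 and 4.94 FPKM in DHT, against 7.38, 7.8 and 7.87 in control (-0.56 ± 0.062, adjusted p = 0.000741). Stat2 measured 7.06, 6.56 and 6.75 FPKM in DHT, also below its control libraries (-0.39 ± 0.074, adjusted p = 0.00832). Irf7 at 1.06, 1.28 and 1.82 FPKM in DHT fell as well (-0.47 ± 0.12, adjusted p = 0.0268). Irf1 at 6.28, 6.72 and 8.26 FPKM in DHT overlapped with control and did not pass (-0.35 ± 0.15, adjusted p = 0.138). Eif2ak2, Lgals3bp and Gbp2, which had not passed in ADM, fell in DHT, and DHT was not tested against ADM. Lgals3bp measured 50, 48.5 and 52.1 FPKM in DHT and 87.6, 92.5 and 86.6 in control (-0.81 ± 0.044, adjusted p = 2.56e-05), and Eif2ak2 22.2, 21.6 and 21.9 in DHT and 29.9, 30.4 and 26.1 in control (-0.38 ± 0.063, adjusted p = 0.00468). Gbp2 differed by -0.68 ± 0.12 in DHT against control (adjusted p = 0.00543). In each of these genes the DHT libraries lay below all control libraries. Ifi35 (15.0, 14.5 and 16.2 FPKM in DHT, -0.24 ± 0.088) and Ifi27 (63.1, 63.7 and 64.1 FPKM in DHT, -0.08 ± 0.052) did not pass. Calls close to the threshold were those of Parp12, Ddx58, Trim25, Ifih1, Irf7 and Igtp, which each ended without any of 3 or more of the 6 libraries, with adjusted p between 0.0542 and 0.107 over the settings that ended them. Each of the 6 libraries ended at least 1 of these calls, and 26 to 31 genes fell when single libraries were left out.

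ADM+DHT was compared with ADM to see the androgen's effect in adipogenic medium, where most of these genes were already low. Of 33 genes tested 5 rose, 5 fell and 23 did not pass, against 17.2% called higher and 16.3% called lower over all 10823 genes tested, so the shares of 15.2% each way were near the background. The median log2 difference was -0.17, against 0.01 over all genes, and Ifit1 alone stood at or below 50% of the ADM mean, 1 of 33 against 3.25% of all genes. The groups did not overlap for 17 of the 33, against 48.3% of all genes. Irgm1 rose most, to 10.6, 9.47 and 10.7 FPKM in ADM+DHT libraries, against 5.84, 5.28 and 5.55 FPKM in ADM libraries (0.78 ± 0.068, adjusted p = 0.000154). All ADM+DHT libraries lay above all ADM libraries. Among the IFIT genes the calls split: Ifit3, Ifit3b and Ifit2 rose by 0.38 ± 0.10, 0.28 ± 0.066 and 0.30 ± 0.075, and Ifit1 fell. Ifit3 measured 8.13, 8.45 and 7.45 FPKM in ADM+DHT and 5.5, 5.3 and 7.06 in ADM (adjusted p = 0.0284). Ifit1 measured 1.77, 1.59 and 1.18 FPKM in ADM+DHT and 2.74, 2.73 and 4.92 in ADM (-0.80 ± 0.19, adjusted p = 0.0181). Ifit3b measured 3.1, 3.43 and 3.23 FPKM in ADM+DHT and 2.54, 2.48 and 2.45 in ADM (adjusted p = 0.0153). The groups did not overlap in any of the 4 IFIT genes.

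Ifi27 and Lgals3bp, the most abundant genes of the list, fell with DHT in adipogenic medium. Ifi27 measured 59.1, 54.8 and 58.6 FPKM in ADM+DHT libraries, against 86.9, 93.1 and 97.7 FPKM in ADM libraries (-0.68 ± 0.053, adjusted p = 9.43e-05). Lgals3bp measured 63.4, 60.1 and 61.5 FPKM in ADM+DHT and 80.7, 78.5 and 93.7 in ADM (-0.44 ± 0.068, adjusted p = 0.00239). In both genes no library of ADM+DHT reached the ADM range. Iigp1 fell to 1.47, 1.02 and 1.23 FPKM in ADM+DHT, against 2.31, 2.06 and 2.35 in ADM (-0.53 ± 0.097, adjusted p = 0.00504), and Gbp2 differed by -0.46 ± 0.11 (adjusted p = 0.0158). Samd9l rose by 0.27 ± 0.078 (adjusted p = 0.0374). Isg15 was at 2.46, 3.12 and 3.35 FPKM in ADM+DHT and 1.96, 3.04 and 3.54 in ADM, which overlapped (0.06 ± 0.17, adjusted p = 0.811). Bst2 at 8.67, 6.47 and 8.12 FPKM in ADM+DHT (-0.25 ± 0.13, adjusted p = 0.182) and Gbp3 at 0.928, 1.23 and 0.54 (-0.30 ± 0.19, adjusted p = 0.265) overlapped with ADM too. Of the 7 genes tested of the ISG15 group, the 5 RNA sensors and enzymes and the 4 transcription factors, 0 passed limma's adjusted p, while 5, 1 and 2 of them were lower and 0 higher at an unadjusted p below 0.05. Of the 10 calls, 4 held under every setting tried, those of Irgm1, Ifi27, Lgals3bp and Iigp1. The calls of Ifit2, Ifit3, Ifit3b, Samd9l, Ifit1 and Gbp2 each ended without at least 1 single library, with adjusted p between 0.0519 and 0.102 over all settings that ended them. Each of the 6 libraries ended at least 1 of them, and 2 to 6 genes rose and 4 to 6 fell when single libraries were left out.

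Whether the DHT difference itself differed between the media was tested as an interaction over all 12 libraries. The value is the DHT difference in adipogenic medium minus that in regular medium, so a positive value means a less negative or more positive DHT difference in adipogenic medium. It was positive past the threshold for 25 of the 37 genes and negative for 1, Ifi27, against 12.5% and 12.9% of all 11152 genes tested. Of the 25, 4 (Herc6, Ifi44, Oas1a and Oasl2) were below the level for testing in ADM+DHT against ADM. With 1 added to FPKM, such low levels leave little room for a DHT difference in adipogenic medium. For Oasl2 the ratio of mean FPKM with DHT was 0.363 in adipogenic and 0.378 in regular medium, and for Oas1a 0.379 and 0.325. The positive calls of Oasl2 and Oas1a are therefore not read as a difference between the media. For Ifi44 the ratios were 0.535 and 0.285, and its call held in every setting in which it was tested. For Herc6 they were 1.01 and 0.573, and its call ended with 0.1 added to FPKM (adjusted p = 0.0514). Both genes averaged below 1 FPKM in ADM and in ADM+DHT, so these ratios rest on low levels. Irgm1 had the largest value, 1.5 ± 0.10 (adjusted p = 1.12e-06), with DHT differences of 0.78 in adipogenic and -0.72 in regular medium. Ifit3 followed at 1.43 ± 0.13 (adjusted p = 1.34e-05), with 0.38 in adipogenic and -1.05 in regular medium. Ifi27 was the negative one at -0.59 ± 0.076 (adjusted p = 0.00016), with -0.68 in adipogenic and -0.08 in regular medium. All 4 IFIT genes, 6 of 7 RNA sensors and enzymes, 5 of 6 GTPases and 4 of 8 genes of the ISG15 group had a positive call, as did Irf9 alone of the transcription factors (0.42 ± 0.095). Values on the log2 scale depend on the level reached, and with 0.1 added to FPKM in place of 1 the positive calls numbered 20. With single libraries left out they numbered 17 to 24, each of the 12 libraries ended at least 1 call, and the negative call of Ifi27 held throughout.

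The DHT comparisons in the 2 media share no library. Of the 32 genes that fell with DHT in regular medium, 4 rose with it in adipogenic medium (Ifit2, Ifit3, Ifit3b and Irgm1), 4 fell there too (Gbp2, Ifit1, Iigp1 and Lgals3bp), 20 did not pass and 4 were below the level for testing (Herc6, Ifi44, Oas1a and Oasl2). Of the other 5, Samd9l rose and Ifi27 fell in adipogenic medium, and Adar, Ifi35 and Irf1 passed in neither.

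**Figure D4:**
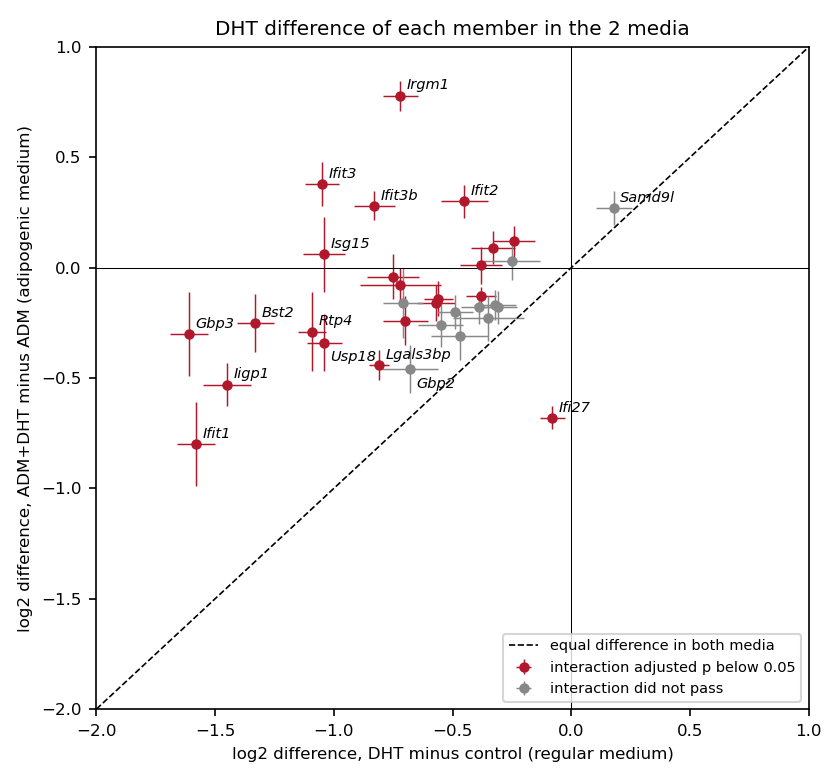
DHT difference of each gene in regular medium (horizontal axis, DHT minus control) and in adipogenic medium (vertical axis, ADM+DHT minus ADM), in log2(FPKM + 1) with SE bars, with genes past the interaction threshold in red and a dashed line of equal difference. Most points lie above the line and to the left of 0, Irgm1 and the genes Ifit2, Ifit3 and Ifit3b lie above the horizontal 0 line, and Ifi27 lies below the dashed line.

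ADM+DHT was set against DHT to ask what adipogenic medium did in the presence of the androgen. Of 35 genes tested 26 fell, 4 rose and 5 did not pass, against 26.7% called lower and 23.3% called higher over all 10942 genes tested. The median log2 difference was -0.34, against -0.02 over all genes, and 9 of the 35 stood at or below 50% of the DHT mean, against 5.05% of all genes. The groups did not overlap for 31 of the 35, against 59.6% of all genes. All 4 IFIT genes, all 7 tested genes of the ISG15 group and all 4 transcription factors fell. Ifit1 differed most, at 1.77, 1.59 and 1.18 FPKM in ADM+DHT libraries, against 7.22, 7.62 and 8.0 FPKM in DHT libraries (-1.78 ± 0.10, adjusted p = 9.43e-06). Isg15 was at 2.46, 3.12 and 3.35 FPKM in ADM+DHT and 9.26, 10.8 and 11.5 in DHT (-1.54 ± 0.11, adjusted p = 3.22e-05). Ifit3 differed by -1.18 ± 0.064 and Bst2 by -1.11 ± 0.11, and in all 4 genes the groups were far apart. Irf9 measured 3.32, 3.08 and 3.17 FPKM in ADM+DHT and 4.64, 5.14 and 4.94 in DHT (-0.49 ± 0.065, adjusted p = 0.000636). Irf1 measured 4.14, 4.22 and 4.64 FPKM in ADM+DHT and 6.28, 6.72 and 8.26 in DHT (-0.59 ± 0.099, adjusted p = 0.00217). Irf7 at 0.761, 0.89 and 0.522 FPKM in ADM+DHT (-0.46 ± 0.14) and Stat2 at 5.31, 5.42 and 5.99 (-0.25 ± 0.065) were lower as well.

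The genes that rose in ADM+DHT against DHT were Ifi35, Lgals3bp, Irgm1 and Eif2ak2. Ifi35 measured 20.3, 20.5 and 20.1 FPKM in ADM+DHT and 15.0, 14.5 and 16.2 in DHT (0.39 ± 0.05, adjusted p = 0.000595). Lgals3bp measured 63.4, 60.1 and 61.5 FPKM in ADM+DHT and 50, 48.5 and 52.1 in DHT (0.29 ± 0.04, adjusted p = 0.000778), and Irgm1 10.6, 9.47 and 10.7 in ADM+DHT and 7.75, 7.77 and 8.93 in DHT (0.30 ± 0.075, adjusted p = 0.0135). These groups did not overlap. Eif2ak2 measured 24.6, 24.3 and 23.5 FPKM in ADM+DHT and 22.2, 21.6 and 21.9 in DHT (0.13 ± 0.039, adjusted p = 0.0242). Irgm1 had fallen in ADM against control, and Ifi27, which had risen there, fell in ADM+DHT against DHT (-0.14 ± 0.038, adjusted p = 0.0175). Of the 31 genes lower in ADM against control, 24 were lower in ADM+DHT against DHT, Adar, Dhx58, Gbp7 and Igtp did not pass, and Herc6 and Oas1a were below the level for testing. Of the 30 calls 19 held under every setting tried, those of Eif2ak2, Ifih1, Parp12, Parp14, Parp9, Trim25, Irf7, Rtp4, Stat2 and Ifi27 ended without at least 1 single library, and that of Samd9l in a fit over all 12, with adjusted p between 0.0509 and 0.111 over all settings that ended them. Each of the 6 libraries ended at least 1 call, and 19 to 22 genes fell and 3 or 4 rose when single libraries were left out.

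Genes of the wider pathway were counted from lists of their roles. The 21 interferon genes of these lists were not analysed here. Of 10 receptor and signalling genes tested, 4 rose and 3 fell in ADM against control, and 4 rose and 1 fell in DHT against control, against 28.3% higher and 33.3% lower of all genes in ADM and 12.7% higher and 14.1% lower in DHT. Ifngr1, a chain of the interferon gamma receptor, had 119, 128 and 125 FPKM in ADM libraries, against 28.4, 26.6 and 28.9 FPKM in control libraries (2.11 ± 0.049, adjusted p = 6.12e-08), and with 50.7, 53.6 and 51.6 FPKM in DHT it also lay above all control libraries (0.87 ± 0.046, adjusted p = 2.33e-05). The kinase gene Jak2 (0.60 ± 0.059) and Irf2 (0.88 ± 0.055), which encodes a repressor that competes with IRF1, rose in ADM, and both rose in DHT, by 0.37 ± 0.052 and 0.34 ± 0.069. The 3 that fell in ADM were the receptor genes Ifngr2 (-0.40 ± 0.062) and Ifnar2 (-0.38 ± 0.066) and the kinase gene Jak1 (-0.17 ± 0.04). These did not pass in DHT against control.

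Of 12 negative regulators of the pathway 5 rose (41.7%) and 3 fell (25%) in ADM, against 28.3% and 33.3% of all genes, and 4 rose and 1 fell in DHT, against 12.7% and 14.1%. Pias1, an inhibitor of interferon signalling, had 17.4, 19.1 and 18.4 FPKM in ADM+DHT, 8.97, 8.33 and 8.37 in ADM, 8.92, 9.71 and 8.53 in DHT and 4.77, 5.22 and 4.88 in control. DHT came with a rise of Pias1 in both media, 1.01 ± 0.055 in adipogenic and 0.75 ± 0.068 in regular medium. Socs3, a feedback inhibitor of JAK kinases, rose in ADM (0.77 ± 0.058) and fell in DHT (-0.22 ± 0.057, adjusted p = 0.0272), a call that ended without any of 4 of the 6 libraries, with adjusted p up to 0.0855. Trim24 and Irf2bp2, repressor genes, rose in ADM by 0.74 ± 0.051 and 0.54 ± 0.05. The 3 that fell in ADM were Socs1 (-0.47 ± 0.068), Irf2bp1 (-0.22 ± 0.065) and Ptpn1 (-0.17 ± 0.065).

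Of 16 nucleic acid sensing genes tested 4 rose and 4 fell in ADM, 25% each way against 28.3% and 33.3% of all genes. In DHT 2 rose and 2 fell, 12.5% each way against 12.7% and 14.1%, so neither comparison set the list above the background. Tmem173, which encodes the DNA-sensing adaptor STING, had 0.634, 0.809 and 0.982 FPKM in ADM and 5.59, 4.84 and 6.33 in control (-1.86 ± 0.11, adjusted p = 5.93e-06), and 3.61, 2.76 and 3.35 in DHT (-0.63 ± 0.11, adjusted p = 0.00594). Zbp1, a sensor of left-handed nucleic acid, differed by -1.44 ± 0.09 in ADM and -1.08 ± 0.078 in DHT. Samhd1, whose enzyme degrades the nucleotides that DNA synthesis of viruses needs, went the other way, with 36.9, 36.5 and 33.8 FPKM in ADM and 15.4, 15.7 and 15.3 in control (1.16 ± 0.049, adjusted p = 9.82e-07). Pcbp2 differed by -0.43 ± 0.044 in ADM.

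Other interferon-induced genes outside the 41 were counted as well. In ADM against control 38 of 65 tested fell and 12 rose (58.5% and 18.5%, median -0.37), against 33.3% and 28.3% of all genes. In DHT against control 32 of 63 fell and 3 rose (50.8% and 4.76%, median -0.34), against 14.1% and 12.7%. In ADM+DHT against ADM 11 of 59 fell and 13 rose (18.6% and 22%), near the 16.3% and 17.2% of all genes. Ifitm3, a membrane protein that blocks viral entry, was the most abundant one named, with 92.3, 87.2 and 95.8 FPKM in ADM and 288, 264 and 264 in control (-1.56 ± 0.052, adjusted p = 3.39e-07). In ADM+DHT it had 142, 128 and 129 FPKM, above every ADM library (0.53 ± 0.054, adjusted p = 0.000314). Apol9b (-2.61 ± 0.092) and the RNA-binding antiviral gene Zc3hav1 (-1.07 ± 0.044) fell in ADM. Ifi207, of the family that senses DNA, had 23.1, 23.6 and 20.4 FPKM in ADM and 1.91, 2.13 and 1.43 in control (3.06 ± 0.11, adjusted p = 4.12e-07). Tgtp1 and Tgtp2, T-cell specific GTPases named after their values were seen, resembled Irgm1, with rises of 1.20 ± 0.097 and 1.04 ± 0.11 in ADM+DHT against ADM and falls of 0.78 and 1.32 in DHT against control. Sequence shared between Tgtp1 and Tgtp2 was not searched, so their values may not be independent.

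Some genes lie side by side or resemble each other, so their values are not independent. The 4 IFIT genes lie within chromosome 19, and Parp14, Dtx3l and Parp9 within chromosome 16. Gbp7, Gbp3 and Gbp2 lie between 142530342 and 142638008 on chromosome 3. Of the 100-base stretches of the longest transcript, 31.7% of Ifit3 occur in Ifit3b, 27.4% of Ifit3b in Ifit3 and 40.1% of Oas1a in Oas1g, so reads of these pairs may be divided between them and their levels are uncertain. Igtp overlaps Irgm2 on the same strand over 7974 bases and shares 5.67% of such stretches with it, so its level is uncertain as well. Irf9 overlaps Rnf31 on the same strand over 123 bases. Dtx3l and Parp9 overlap by 682 bases on opposite strands, and the libraries were strand-specific.

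Markers of blood cells were low, and their summed level was highest in control. Of 12 macrophage and haematopoietic markers 6 were in the tables, summing to 7.93 to 9.01 FPKM in ADM+DHT, 9.5 to 10.6 in ADM, 9.57 to 11.4 in DHT and 16.4 to 18.3 in control. Cd74 and Lyz2 held most of the sum, and the defining markers Ptprc, Adgre1, Csf1r and Itgam were not analysed here. Cd74, itself inducible by interferon gamma, was among the 2 of 4 tested markers that fell in ADM, against 33.3% of all genes. The 4 differences in ADM ranged from -2.34 to 0.35, so the markers did not all follow the sum there. In DHT 1 of 4 fell, against 14.1% of all genes, and all 4 differences were negative, from -1.44 to -0.13. Of the plasmacytoid dendritic cell markers Bst2 alone was in the tables, and of 6 endothelial markers Emcn alone, at no more than 1.26 FPKM in any library. The part of these markers in the results was not tested. Scaled without the mitochondrially encoded genes, whose share moved with adipogenic medium, 31 of the 37 genes fell in ADM and 30 in DHT.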

How the data were processed

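Poly(A)-selected, strand-specific libraries were sequenced for 150 cycles in paired ends, per the labels' protocols. HISAT2 and StringTie, with cutadapt and FastQC, are named without versions in the submitters' processing notes, beside the build GRCm38. The authors deposited 4 tables of FPKM, each for a pair of groups, joined here by gene identifier into 12028 genes, of which 11582 had values in all 12 libraries. The authors' log2, fold (ratio), p-value and q-value columns in the deposited tables were not used. Each of them held 1 empty line as received. Groups came from titles and treatment labels, and 1 ADM+DHT title that is spelled differently was read as replicate 2.

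From FPKM, log2(FPKM + 1) was modelled in R 4.3.3 by limma 3.58.1 with an intensity trend (tables read by data.table, release 1.17.8), for genes that averaged 1 FPKM or more in either group. Pairs used their own 6 libraries, leaving 4 degrees of freedom, and the interaction used 12, leaving 8. All tests were two-sided with Benjamini-Hochberg adjustment over all genes tested, and "rose", "fell" and "changed" mean an adjusted p below 0.05. The fits of the pairs were tested on simulated data, with changes of 1 log2 unit in genes that were not at low levels. Smaller changes, changes in genes at low levels and the interaction were not simulated. Without counts the depth is unknown, and precision rests on 3 biological replicates of 1 cell line. The p-values weigh each difference against the spread between these cultures.

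The genes and all lists were chosen with earlier results of these data known, and no list was tested as a set. Values of every library are given for the 4 or 5 largest differences of a comparison, the 2 largest interactions, the transcription factors and genes that moved against the majority. Up to 4 genes of each pathway list, by adjusted p in ADM against control, are named, some by their differences alone. The negative regulators and the receptor and signalling genes that fell in ADM are named besides. A gene that this rule names is not reported here. Promoter windows came from RefSeq (GRCm38.p6), and shared stretches and overlaps from GENCODE M21, which holds 35 of the 38 identifiers. Python 3.11.15, pandas 2.3.3, numpy 2.4.6 and matplotlib 3.10.9 were used. Alternatives were another pseudocount, filter, trend, scaling, a fit over all libraries, a block for replicate numbers, and leaving out each library.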

Additional observations from a re-analysis of the deposited data

Results flagged for a closer look

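The differences between the effects of DHT in the 2 media were past the threshold for 26 of the 37 interferon-stimulated genes tested and for 13 of the pathway genes named by rule. Each value is the log2 difference in adipogenic medium minus that in regular medium, from limma over all 12 libraries, and the adjusted p over all genes was below 0.05 for each.

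Among the IFIT genes the values were 1.43 for Ifit3, 1.11 for Ifit3b, 0.78 for Ifit1 and 0.74 for Ifit2. Ifit3, Ifit3b and Ifit2 rose with DHT in adipogenic medium and fell with it in regular medium, while Ifit1 fell in both, by less in adipogenic medium. Among the GTPases they were 1.5 for Irgm1, 1.31 for Gbp3, 0.91 for Iigp1, 0.65 for Igtp and 0.46 for Gbp7. Irgm1 rose in adipogenic and fell in regular medium, and the other 4 were lower with DHT in both, past the threshold in adipogenic medium only for Iigp1.

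Of the ISG15 group Isg15 had 1.1, Usp18 0.70, Parp9 0.41 and Herc6 0.38. Of the RNA sensors and enzymes Oas1a had 0.73, Dhx58 0.70, Oasl2 0.52, Ddx58 0.42, Ifih1 0.38 and Eif2ak2 0.25. Irf9 had 0.42. Of the other effectors Bst2 had 1.08, Ifi44 1.00, Rtp4 0.80, Lgals3bp 0.37 and Ifi35 0.36, and Ifi27 had the one negative value, -0.59.

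Of these 26 calls 14 held in every alternative in which the gene was tested, up to 19 a gene. Those of Oasl2 and Ifi35 ended in 12, Eif2ak2 in 10, Ifih1 in 9, Ifit1, Gbp7 and Igtp in 8, Ddx58 in 7 and Parp9 in 6. Those of Herc6, Usp18 and Oas1a ended with 0.1 added to FPKM in place of 1. Under that setting the calls of Oasl2 and Ifit1 ended too, at values of 0.15 (adjusted p = 0.803) and 0.58 (adjusted p = 0.179). Herc6, Ifi44, Oas1a and Oasl2 were below the level for testing in ADM+DHT against ADM, where low levels leave little room for a difference on this scale.

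Of the pathway genes Apol9b had 1.41, Tmem173 1.09, Ifitm3 0.98, Zc3hav1 0.69 and Pias1 0.26. Negative values were -0.83 for Ifngr1, -0.54 for Irf2, -0.51 for Ifi207, -0.42 for Irf2bp2, -0.41 for Socs3, -0.33 for Samhd1, and -0.25 each for Trim24 and Jak2. The calls of Pias1 and Trim24 each ended without any of 8 of the 12 libraries, with adjusted p up to 0.0961. Tgtp2 and Tgtp1, named after their values were seen, had 2.36 and 1.99. Ifngr1 had 128, 125 and 130 FPKM in ADM+DHT and 119, 128 and 125 in ADM, groups that overlapped, so its negative value came from the rise with DHT in regular medium.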

How the results depend on the processing

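Directions and calls of most results held under the alternatives. All 32 calls in ADM against control, 26 of 32 in DHT against control, 19 of 30 in ADM+DHT against DHT, 14 of 26 in the interaction and 4 of 10 in ADM+DHT against ADM held under every one in which the gene was tested. With a mean of at least 5 FPKM required, 3 genes rose and 2 fell of 15 tested in ADM+DHT against ADM, and 14 fell of 19 tested in ADM+DHT against DHT; fewer genes were tested there. With a replicate block 3 rose in ADM+DHT against ADM, and replicate numbers did not pair the libraries (correlations of deviations -0.139 to 0.139 for the 18 pairs with a shared number, -0.119 to 0.191 for the other 36), so a call lost under the block is no sign of a weaker effect. With single libraries left out the genes higher and lower numbered 1 and 31 to 34 in ADM against control, 2 to 6 and 4 to 6 in ADM+DHT against ADM, 3 to 4 and 19 to 22 in ADM+DHT against DHT, 0 and 26 to 31 in DHT against control, and 17 to 24 and 1 in the interaction. Ifi35 in ADM against control ranged from -0.05 to 0.11 and was negative without control replicate 3 or ADM replicate 3 (adjusted p = 0.661 and 0.718). Isg15 in ADM+DHT against ADM ranged from -0.11 without ADM replicate 1 to 0.19, and was -0.01 without ADM+DHT replicate 3 (adjusted p = 0.542 and 0.99 for the negative values). Neither gene was called in that comparison. The cause of these changes was not tested. Genes near 1 FPKM, such as Herc6, Oas1a and Irf7, are limited by depth, which is unknown.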
